A study of Homo sapiens with 6 samples.

Results

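The SLAM receptors are a small family of lymphocyte surface proteins, and SAP (gene SH2D1A) and EAT-2 (gene SH2D1B) are the adaptors that read their tails. The members examined were the receptor genes SLAMF1, LY9, CD48, CD84, CD244, SLAMF6, SLAMF7 and SLAMF8 and both adaptor genes, 10 of the 20046 genes with a named probe, chosen by gene name. Every array probe annotated to these symbols, current or former, was taken, which gave 14 of the 47321 probes with a value: 3 for LY9, 2 each for CD84 and SLAMF6, and 1 for each other gene. The arrays held RNA of the human B cell line Mec-1, an established line derived from chronic lymphocytic leukaemia (CLL), which the labels describe as constitutively SLAMF1 positive. One group of 3 samples carried a scrambled shRNA as control, and the other group of 3 carried an shRNA directed at SLAMF1 from a pGFP-V-RS construct. Both groups were grown in complete medium and nothing else was added, as far as the labels say. The submitters' design text calls the 3 samples of each group biological replicates, but states neither whether a line was 1 clone nor whether the cultures were transfected separately. A p-value here therefore measures the spread between these samples, which may be technical.

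Most receptors of this family recognise the same receptor on a neighbouring cell, while CD48 is the ligand of CD244. Short tyrosine motifs in the tails of SLAMF1, LY9, CD84, CD244, SLAMF6 and SLAMF7 can bind SAP or EAT-2, in most cases once phosphorylated. SAP then brings in the kinase FYN, and in its absence the same motifs can recruit inhibitory phosphatases. Loss of SAP in people causes X-linked lymphoproliferative disease. In B cells SLAMF1 is also known as a receptor for measles virus and as a partner of the autophagy protein Beclin 1.

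Each array gave a signal intensity per probe and a detection p-value, which ranks that signal against the negative control probes of the array. A probe is called detected here at a detection p-value under 0.05. Between 17192 and 19586 probes were detected per array, and the median signal of undetected probes, a measure of background, was 82.3 to 89.1. Replicate 2 of the SLAMF1 shRNA set stood apart, with the fewest detected probes and correlations of 0.928 and 0.940 with its 2 fellow replicates, which correlated at 0.994 with each other (across probes, which are not independent). All arrays shared 1 chip on which the control samples filled the leading positions, so chip position and group cannot be told apart. Levels below are log2 values after background correction and quantile normalization. They describe 1 probe at a time and are not compared between probes.

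Of the 14 probes, 8 were detected on all 6 arrays and 3 on none. Receptors with a probe on every array were SLAMF1, LY9, CD48, SLAMF6 and SLAMF7, and the adaptor was SH2D1A. CD84 was at the limit of detection, and CD244, SLAMF8 and SH2D1B were not detected on any array. A detection p-value under 0.05 was reached by 28 of the 42 probe readings in the control samples and by 27 of 42 in the SLAMF1 shRNA samples. At a stricter limit of 0.01 these were 21 and 26, the shift lying in LY9.

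**Figure D1:**
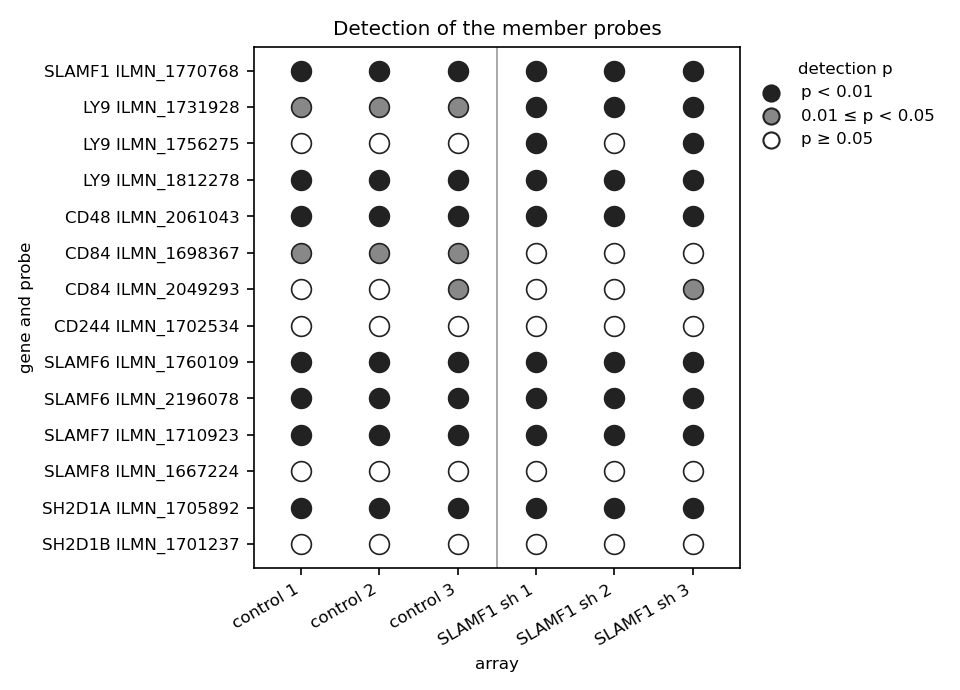
Detection of each member probe (rows) on each array (columns, 3 control and 3 SLAMF1 shRNA samples). Black circles have a detection p-value under 0.01, grey circles from 0.01 to under 0.05 and open circles 0.05 or more. CD244, SLAMF8 and SH2D1B are open on all 6 arrays, and the LY9 probe ILMN_1731928 is grey in the control samples and black in the SLAMF1 shRNA samples.

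A probe was tested if it was detected on at least 3 of the 6 arrays, which 9 of the 14 member probes were, standing for 7 genes. In the limma fit over all 19073 such probes, 3 member probes were higher in the SLAMF1 shRNA samples and 0 lower after Benjamini-Hochberg adjustment with a threshold of 0.05. The background was high: 18.7% of all tested probes were called, 9.24% as higher and 9.42% as lower. The 3 called probes belonged to LY9 (2 probes) and CD48. By gene, 2 of the 7 tested members had a called probe, against 22.5% of all 10832 genes read by 1 probe each. At the unadjusted p under 0.05 the same 3 were higher and again 0 lower. The median log2 difference of the 9 probes was 0.39, with 8 of 9 above 0, against -0.01 over all tested probes, of which 49.2% were above 0. Read by 1 probe a gene, 6 of 7 members were above 0, against 5590 of all 10832 genes. With median centring the member median was 0.16, with 7 of 9 above 0, against -0.14 over all tested probes. Of these 9 probes the CD84 one was tested only because the control samples detected it, so these figures describe the tested probes and not all members. Because the samples are bulk RNA, a change in the share of expressing cells and a change in RNA per cell cannot be told apart.

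SLAMF1, the targeted gene, was read by 1 probe, ILMN_1770768, annotated to NM_003037. Its signals were 472, 395 and 346 in the control samples and 516, 301 and 464 in the SLAMF1 shRNA samples, all far above background. Before normalization the groups overlapped, and replicate 2 of the SLAMF1 shRNA set, the array with the lowest mean signal, had the lowest signal. After normalization the levels were 8.26, 8.38 and 8.01 against 8.70, 8.44 and 8.64, so that all 3 samples labelled SLAMF1 shRNA lay above all 3 controls. Non-overlap of this kind was common, being met by 41.4% of all tested probes (19.6% with the SLAMF1 shRNA samples higher) and by 6 of the 9 member probes (5 of them higher). The log2 difference was 0.38 (standard error (SE) 0.17, 95% interval -0.02 to 0.78) and did not pass the threshold (limma, adjusted p = 0.171). The transcript that the shRNA was meant to lower was thus not lower by this probe, and directions below are those of the labels. The position of the probe on the transcript, against that of the shRNA target, was not analysed here. By median centring in place of quantile normalization the difference was 0.10 (adjusted p = 0.846).

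**Figure D2:**
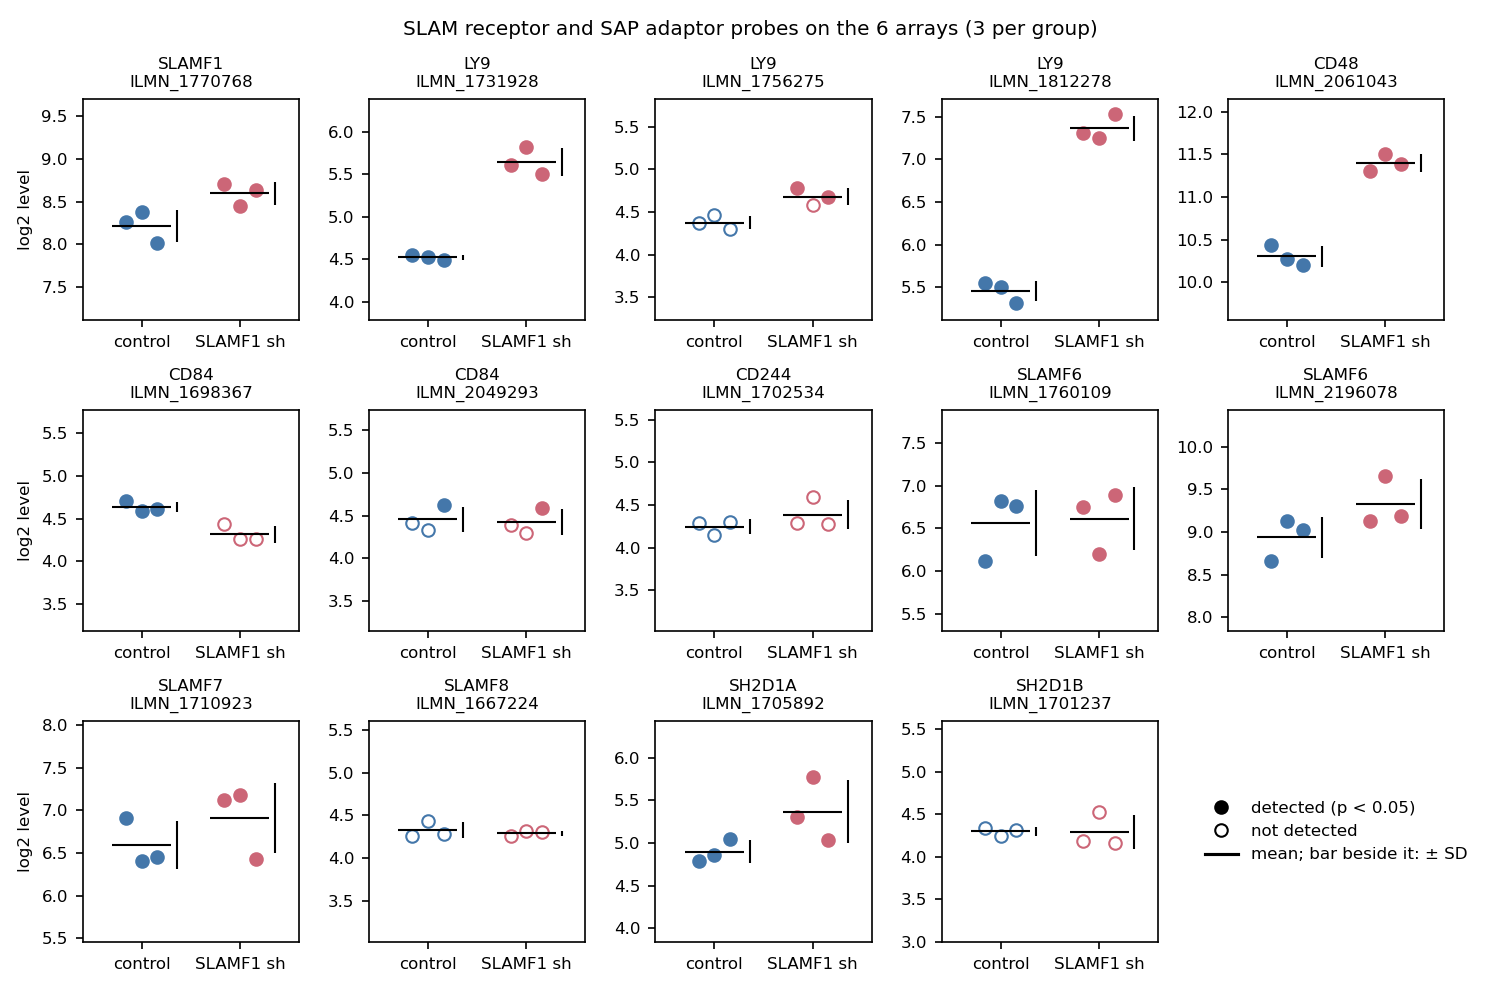
Log2 levels of the 14 member probes, 1 panel a probe, with control samples on the left and SLAMF1 shRNA samples on the right of each panel (3 each, ordered by replicate number). Filled circles are detected, open circles not detected, the horizontal line is the mean and the bar beside it spans 1 SD either way. Each panel spans the same log2 range around its own centre. The groups are widely separated for CD48 and for the LY9 probes ILMN_1731928 and ILMN_1812278.

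LY9, also called CD229 or SLAMF3, is a homophilic receptor of B and T cells, and it showed the largest difference among the member probes tested. Probe ILMN_1812278, annotated to NM_001033667, gave signals of 130, 113 and 109 in the control samples and 245, 163 and 255 in the SLAMF1 shRNA samples. Every SLAMF1 shRNA signal exceeded every control signal. Its level rose from 5.45 ± 0.12 to 7.36 ± 0.15 (SD, n = 3 each), a log2 difference of 1.91 (SE 0.16, limma adjusted p = 0.000396) or 3.75-fold. Of all tested probes 1.32% had a larger positive difference.

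Probe ILMN_1731928, annotated to another LY9 transcript, NM_002348, read close to background in the control samples, at 98.2, 90.2 and 90.1, with detection p-values of 0.031, 0.034 and 0.042. In the SLAMF1 shRNA samples it read 122, 104 and 116, with detection p-values listed as 0 on all 3 arrays. It rose by a log2 difference of 1.12 (SE 0.16, limma adjusted p = 0.00349), or 2.17-fold. The remaining LY9 probe, ILMN_1756275, was also annotated to NM_002348 and was too dim to be tested. Its signals were 93.5, 89.0 and 85.7 against 97.0, 87.5 and 94.4, it was detected on 0 of 3 control and 2 of 3 SLAMF1 shRNA arrays, and replicate 2 of the latter was the one below the limit. The size of the LY9 rise depended on how background was treated: without background correction the differences were 1.05 and 0.38, for ILMN_1812278 and ILMN_1731928, and still passed (limma, adjusted p = 0.001085 and 0.0133).

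CD48, also called SLAMF2, is anchored in the membrane by a lipid, has no tail of its own, and serves as ligand for CD244. Its probe ILMN_2061043 gave 1967, 1255 and 1294 in the control samples and 2632, 2474 and 2582 in the SLAMF1 shRNA samples. The groups lay well apart, and the control samples were the more spread, with replicate 1 the highest. Its level rose from 10.31 ± 0.12 to 11.40 ± 0.10 (SD, n = 3 each), a log2 difference of 1.09 (SE 0.16, limma adjusted p = 0.003675) or 2.13-fold. Leaving out any 1 sample gave 1.02 to 1.15, and the call held each time (adjusted p = 0.00054 to 0.0282). CD244, also called 2B4, is the receptor for CD48 on natural killer (NK) cells and some T cells, and was at background: its signals were 91.3, 79.0 and 85.5 in the control samples and 86.3, 87.6 and 85.9 in the SLAMF1 shRNA samples. The lowest detection p-value among these readings was 0.051, in replicate 2 of the SLAMF1 shRNA set. Ligand was thus measured well above background in both groups, and the transcript of its receptor was not detected in either.

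CD48 and SLAMF1 lie next to each other among the tested genes on chromosome 1, and their promoter windows are shown because CD48 was called higher while SLAMF1 was not. Each is the 250 bases before the gene's start in RefSeq, build GRCh38.p14, minus strand, read 5′ to 3′ along the gene, at chr1:160647045-160647294 for SLAMF1 and chr1:160711823-160712072 for CD48. Capitals mark GGAA, the core bound by ETS factors, or its reverse complement TTCC.
SLAMF1: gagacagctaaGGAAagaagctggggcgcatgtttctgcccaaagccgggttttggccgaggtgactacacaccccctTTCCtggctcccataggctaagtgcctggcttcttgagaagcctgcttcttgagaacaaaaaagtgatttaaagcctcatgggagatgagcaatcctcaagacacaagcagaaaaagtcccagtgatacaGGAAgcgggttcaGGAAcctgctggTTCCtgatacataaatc
CD48: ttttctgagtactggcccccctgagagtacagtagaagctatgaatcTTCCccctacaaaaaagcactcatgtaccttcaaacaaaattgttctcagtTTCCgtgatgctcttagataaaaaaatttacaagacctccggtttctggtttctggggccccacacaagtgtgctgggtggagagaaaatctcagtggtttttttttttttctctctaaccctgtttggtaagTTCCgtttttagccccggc
The SLAMF1 window holds 5 GGAA matches on either strand and the CD48 window 3, against a median of 3 over the windows of 27305 genes, 92.8% of which hold at least 1. Neither window holds, on either strand, an NF-kappaB pattern (GGGA and CC with 4 bases of any kind between), found in 22.1% of all windows, or CCCNNGGG, a core of EBF sites, found in 16.6%. These are matches of letters only. The table used had windows for 7 of the 10 members, and those of LY9, CD84 and SLAMF7 were not analysed here.

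CD84, also called SLAMF5, is a homophilic receptor described in CLL as a survival receptor. Its probe ILMN_1698367 read 102, 91.4 and 92.2 in the control samples, with detection p-values of 0.012, 0.023 and 0.019, and 89.9, 82.5 and 85.3 in the SLAMF1 shRNA samples, where it was not well above background on any array. The groups did not overlap, with measured means of 4.64 and 4.32. By the bound that the detection limit allows, the control mean was at least 1.09-fold higher. The probe was tested only because the control samples detected it. The fit gave a log2 difference of -0.32 (SE 0.15, 95% interval -0.67 to 0.04) and it did not pass (limma, adjusted p = 0.188). "At least" is the mean of the brighter group over, on each dimmer array, the higher of the probe's own level and the lowest level of any detected probe. This bound takes no account of the spread between samples, and the 95% interval of the CD84 probe includes 0. The other probe, ILMN_2049293, was detected on 1 array of each group and read 94.8, 86.3 and 92.4 against 88.9, 83.5 and 92.6, with full overlap.

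SLAMF6, also called NTB-A, is a homophilic receptor of B, T and NK cells. Both of its probes are annotated to NM_052931 and were detected on all arrays. The brighter, ILMN_2196078, varied little before normalization, with signals of 608, 610 and 623 against 670, 668 and 645, and its log2 difference was 0.39 (SE 0.21, 95% interval -0.10 to 0.89, limma adjusted p = 0.244). It was 0.16 with median centring, 0.25 without control replicate 1 and 0.23 without SLAMF1 shRNA replicate 2, and passed in none of these. The dimmer, ILMN_1760109, read 161, 179 and 183 against 189, 114 and 192. Its low value of 114 came from replicate 2 of the SLAMF1 shRNA set, the sample that was highest by the other probe after normalization, with a level of 9.66. It gave a log2 difference of 0.05 (SE 0.27, 95% interval -0.57 to 0.66, adjusted p = 0.925), a sign that turned with single samples left out and with median centring (-0.19). Neither probe passed, and the intervals allow a change in either direction.

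SLAMF7, also called CS1 or CRACC, is abundant on plasma cells and is the target of the antibody elotuzumab. Probe ILMN_1710923 read 229, 152 and 161 in the control samples and 224, 158 and 159 in the SLAMF1 shRNA samples. Before normalization 1 sample in each group stood above the other 2, and the groups overlapped. After normalization they overlapped as well, with levels of 6.91, 6.41 and 6.45 against 7.12, 7.18 and 6.43. The log2 difference was 0.32 (SE 0.25, 95% interval -0.27 to 0.91, limma adjusted p = 0.421). It was 0.06 with median centring and 0.20 without background correction, and with 1 sample left out it ranged from 0.19 (without SLAMF1 shRNA replicate 2) to 0.56 (without SLAMF1 shRNA replicate 3). SLAMF8, also called BLAME, is a receptor of myeloid cells with a tail that lacks the adaptor motif. Its signals of 85.2 to 90.1 in the control samples and 83.9 to 86.5 in the SLAMF1 shRNA samples were not well above background.

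SH2D1A, which encodes SAP, was dim but detected on all 6 arrays, with a highest detection p-value of 0.0065. Its signals were 104, 96.2 and 101 in the control samples and 111, 103 and 102 in the SLAMF1 shRNA samples. The normalized levels of 4.78, 4.86 and 5.04 against 5.30, 5.77 and 5.04 overlapped by a narrow margin at 5.04. The log2 difference was 0.47 (SE 0.22, 95% interval -0.03 to 0.98) and did not pass (limma, adjusted p = 0.175). It was 0.17 without background correction, 0.25 with an offset of 50, 0.30 with median centring and 0.30 without SLAMF1 shRNA replicate 2. SH2D1B, which encodes EAT-2, an adaptor of NK cells and some myeloid cells, read 92.8, 83.6 and 85.9 against 82.4, 87.0 and 81.3, with no detected array and no order between the groups.

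**Figure D3:**
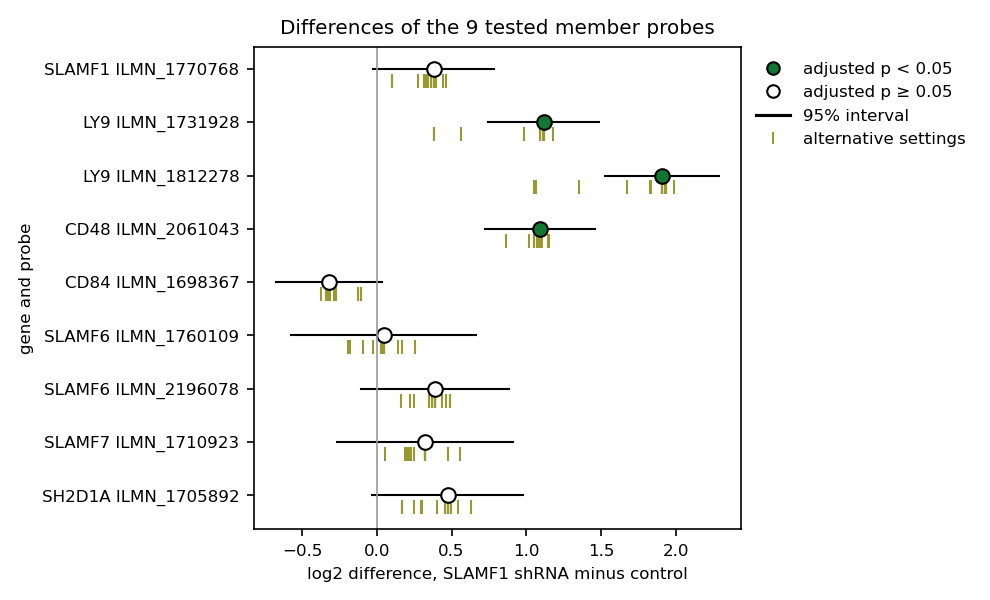
Log2 differences (SLAMF1 shRNA minus control) of the 9 tested member probes. Circles show limma estimates with 95% intervals, filled where the adjusted p is under 0.05, and ticks show the estimates under the alternative settings. The LY9 probes and CD48 lie to the right of 0 in every alternative that tested them, and the ticks of SLAMF6 ILMN_1760109 fall on both sides of 0.

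SAP and EAT-2 are typical of T and NK cells, so markers of other cell types were read beside them. Of 5 B cell markers with a probe, CD74, CD79A, CD79B and MS4A1 were detected on every array, while the PAX5 probe was detected on 0 control and 1 SLAMF1 shRNA array. The summed signal of the 5 moved with the group, at 5115 to 6833 in the control samples and 9526 to 11129 in the SLAMF1 shRNA samples. CD74 was its largest part, at 3141 to 4378 and 4294 to 6086, so the sum does not describe each marker. That CD74 probe, ILMN_1736567, gave a log2 difference of 0.78 (SE 0.16, limma adjusted p = 0.0135), and its other probes gave 0.68 and 1.21. CD79A (probe ILMN_1734878, log2 difference 1.93, SE 0.17, limma adjusted p = 0.000396) and CD79B (probe ILMN_2366212, 1.83, SE 0.23, adjusted p = 0.00176), both chains of the B cell receptor, rose, as CD48 and LY9 did. MS4A1, which encodes CD20, went the other way (probe ILMN_2401714, -1.45, SE 0.43, adjusted p = 0.0551; probe ILMN_1776939, -1.25, SE 0.30, adjusted p = 0.0280). Of 6 T cell markers, CD3D, CD3E, CD5 and CD8A were not detected on any array, CD3G was detected on 1 and CD2 on 5. The summed signal of the 6 was 500 to 551 in the control samples and 494 to 518 in the SLAMF1 shRNA samples. Of 5 NK cell markers, NCR1 and KLRD1 were detected on no array, NCAM1 on SLAMF1 shRNA arrays alone, FCGR3A on 1 control and 2 SLAMF1 shRNA arrays, and KLRF1 by 1 probe on 0 control and 3 SLAMF1 shRNA arrays (at least 1.36-fold higher in the latter; limma, adjusted p = 0.117). The other KLRF1 probe, too dim to be tested, was detected on 1 array of each group, with mean levels of 4.30 and 4.33. The 5 NK cell markers summed to 423 to 465 against 435 to 460. Of 5 markers of monocytes and macrophages, CD68 was detected on every array, MARCO on none, LYZ on 3 control and 2 SLAMF1 shRNA arrays, CD14 on 1 array of each group, and CSF1R on 0 control and 3 SLAMF1 shRNA arrays, at least 1.53-fold higher in the latter (limma, adjusted p = 0.0114). Both KLRF1 and CSF1R met the detection filter only through the SLAMF1 shRNA samples, so their p-values come from probes chosen by that difference. These 5 summed to 591 to 669 against 600 to 647. All of these sums include background, and the median signal of undetected probes was 82.3 to 89.1 per array. The T cell and NK cell sums are therefore mostly background. Whether any of these markers has a part in the member values was not tested.

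Transcripts of the proteins that carry SLAM signals inside the cell mostly did not pass the test, as was the case for genes in general. Of 24 listed partners, 21 were tested by their brightest probe, and 2 were higher and 0 lower, which is 9.52% against 22.5% over all 10832 genes treated in the same way (11.9% higher and 10.6% lower). The median log2 difference of the list was -0.18, against 0.02 over all genes. FGR, a kinase of the SRC family described downstream of EAT-2, was the most changed. Its probe ILMN_2368318 read 278, 249 and 231 in the control samples and 2159, 1083 and 2122 in the SLAMF1 shRNA samples, a log2 difference of 3.46 (SE 0.22, limma adjusted p = 0.000105). A separate FGR probe gave 3.42, and a dim one, ILMN_2272519, gave 0.33 (adjusted p = 0.229). PIK3R1, the regulatory subunit of PI3-kinase, read 242, 202 and 221 against 369, 368 and 341, a log2 difference of 1.22 (SE 0.22, adjusted p = 0.00894). Other tested PIK3R1 probes gave 0.46 and 0.68.

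FYN, the kinase that SAP recruits, gave a log2 difference of -0.27 (SE 0.18, limma adjusted p = 0.341), and its groups did not overlap. Other tested FYN probes gave -1.11 (SE 0.47, limma adjusted p = 0.140), -0.09 and -0.37, and none passed. The phosphatase genes PTPN6 (0.74, SE 0.33, adjusted p = 0.160) and PTPN11 (-0.35, SE 0.18, adjusted p = 0.227), which bind the receptor tails, did not pass. LYN, a SRC family kinase of B cells, gave -0.73 (SE 0.27, adjusted p = 0.102). Replicate 2 of the SLAMF1 shRNA set weighed on this list: without it PLCG1, a phospholipase (-1.02, adjusted p = 0.00135), and LCK, a kinase of T cells (-0.53, adjusted p = 0.0362), were called lower and PLCG2 higher (0.59, adjusted p = 0.0483), for 3 higher and 2 lower in all. Calls over all tested probes rose as well without it, from 18.7% to 30.7%. These genes were named after their values were seen.

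SLAMF1 is described as binding a complex of the autophagy kinase PIK3C3 with its partners. Of 6 tested genes listed for PIK3C3 and its autophagy partners, which need not all sit in 1 complex, 0 were higher and 1 was lower. Of the 6 differences, 1 was above 0 (median -0.51). The 1 call is 16.7% of the list, below the 22.5% over all genes. PIK3C3, the lipid kinase itself, was the listed gene called lower. Its signals were 281, 246 and 237 in the control samples and 135, 103 and 121 in the SLAMF1 shRNA samples, a log2 difference of -1.60 (SE 0.16, limma adjusted p = 0.000674). Without background correction it was -0.93, with the call unchanged. BECN1 (-0.55, SE 0.29, adjusted p = 0.223) and PIK3R4 (-0.75, SE 0.34, adjusted p = 0.173) did not pass.

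Outside the member set, the CD2 family relative SLAMF9 was not detected on any array. CD2, which also binds CD48, read near background on all arrays, from 91.6 to 108 in the control samples and from 86.0 to 104 in the SLAMF1 shRNA samples (log2 difference -0.08, SE 0.21, limma adjusted p = 0.826). CD58, the main human ligand of CD2, moved opposite to CD48. Its probe ILMN_2147517 read 1033, 438 and 527 in the control samples and 318, 227 and 289 in the SLAMF1 shRNA samples, with no overlap and with control replicate 1 far above the other controls. The log2 difference was -1.10 (SE 0.26, limma adjusted p = 0.0239), and the other CD58 probe gave -1.34 (adjusted p = 0.0274). With control replicate 3 left out the difference of -1.20 no longer passed (adjusted p = 0.0702), nor did -1.06 with SLAMF1 shRNA replicate 3 left out (adjusted p = 0.0776).

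**Figure D4:**
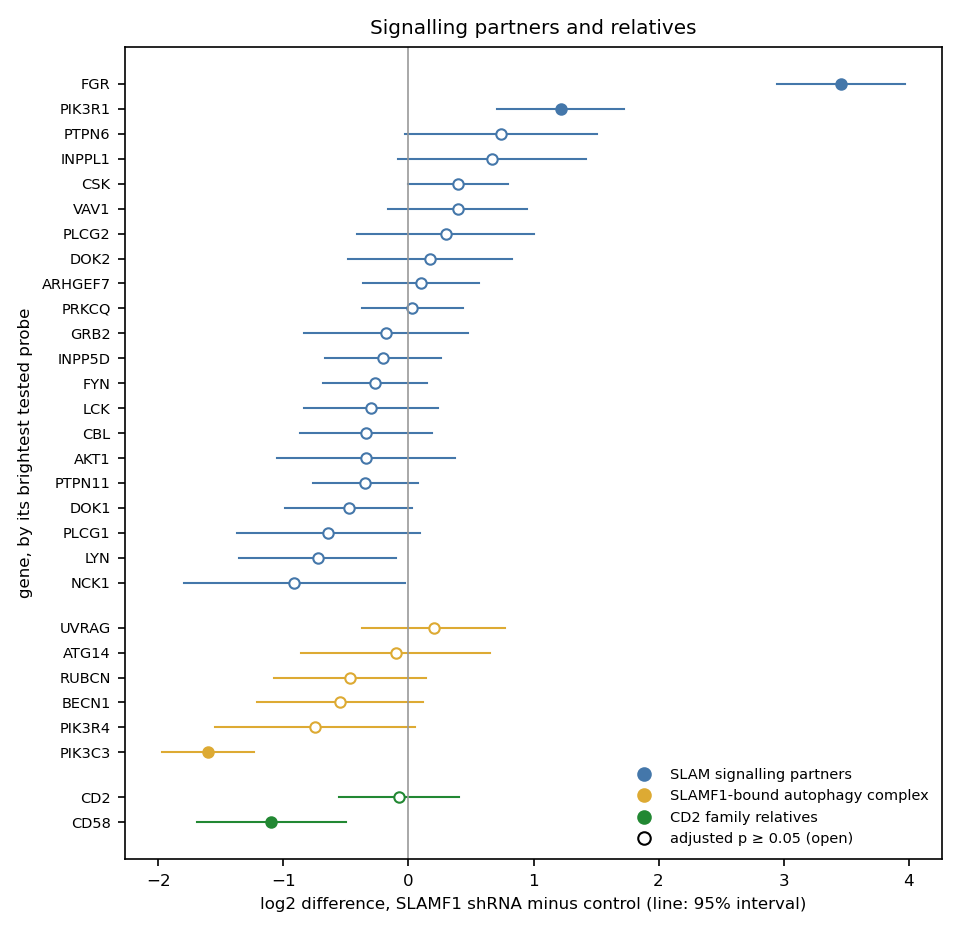
Log2 differences (SLAMF1 shRNA minus control) of SLAM signalling partners, PIK3C3 with its autophagy partners (labelled SLAMF1-bound autophagy complex) and CD2 family relatives, each gene by its brightest tested probe. Lines are 95% intervals and filled circles have an adjusted p under 0.05. FGR at 3.46 lies far to the right of all others, and PIK3C3 at -1.60 and CD58 at -1.10 are the filled circles left of 0.

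The receptor genes lie on chromosome 1, and all but SLAMF8 lie together. SLAMF8 comes before them in the gene order and SH2D1B after them, while SH2D1A is on chromosome X. In the RefSeq gene order SLAMF6, CD84, SLAMF1, CD48, SLAMF7, LY9 and CD244 follow one another with 1 provisional locus between CD48 and SLAMF7. Along this run the log2 differences of the 6 tested genes were 0.39, -0.32, 0.38, 1.09, 0.32 and 1.91 (that of CD84 against a group not well above background), so the called genes CD48 and LY9 are separated by SLAMF7, which was not called. From SLAMF8 to SH2D1B there are 58 other protein-coding genes, of which 31 were tested. Of these, 5 were higher and 2 lower, which is 22.6% against 22.5% over all genes, and their median difference was 0.06. The region therefore held calls in both directions at the background rate.

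The neighbours that rose most were PPOX, an enzyme of haem synthesis (log2 difference 1.36, SE 0.27, limma adjusted p = 0.0126), B4GALT3, a galactosyltransferase (1.21, SE 0.16, adjusted p = 0.00268), FCRLA, an Fc receptor-like protein of B cells (1.16, SE 0.17, adjusted p = 0.00344), and DEDD, a death effector domain protein (0.90, SE 0.25, adjusted p = 0.0440). FCRLB, the gene beside FCRLA, fell (-2.29, SE 0.21, adjusted p = 0.000461; -1.39 without background correction), with signals of 408, 321 and 303 against 116, 108 and 114. PEA15, another death effector domain protein, also fell (-1.32, SE 0.16, adjusted p = 0.00172). The count of higher neighbours was 2 without any 1 control replicate (B4GALT3 and FCRLA each time) and 3 without SLAMF1 shRNA replicate 3. DEDD passed in 5 of the 15 alternatives only, and its other tested probes gave 0.66 (adjusted p = 0.151) and -0.19 (adjusted p = 0.542).

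**Figure D5:**
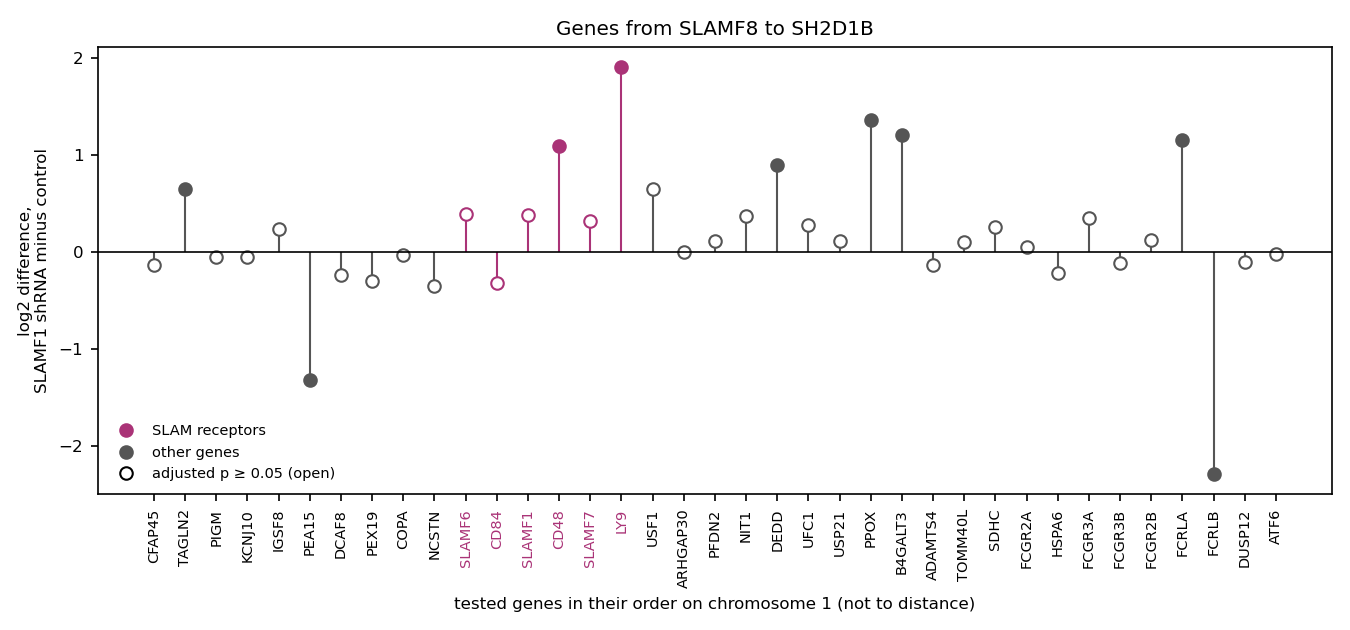
Log2 differences (SLAMF1 shRNA minus control) of the tested genes from SLAMF8 to SH2D1B in their order on chromosome 1, each by its brightest tested probe, with even spacing in place of distance. SLAM receptors are purple, other genes grey, and filled circles have an adjusted p under 0.05. CD48 at 1.09 and LY9 at 1.91 stand above their SLAM neighbours, and FCRLB at -2.29 lies beside FCRLA at 1.16.

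The pattern of SLAMF1 over the 6 arrays was compared with that of every tested probe, as the root mean square distance of log2 levels centred on their mean. The nearest genes were USF2, a transcription factor (distance 0.03), XIAP, an inhibitor of caspases (0.05), and UBA6, a ubiquitin-activating enzyme (0.05). The USF2 and XIAP probes read close to background, at 88.9 to 106 and 86.2 to 105, and neither was detected in control replicate 3. UBA6 read 300 to 522. The other members were not close to it: the nearest member probe, SLAMF6 ILMN_2196078, was at 0.30, and 26.7% of the tested probes lay nearer. LY9 ILMN_1812278, at 0.77, was farther than 90.4% of them. This likeness is over 6 samples in 2 groups and is a description only.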

How the data were processed

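Total RNA of 6 samples was amplified to biotinylated cRNA and read on Illumina beadchips, per the labels. The authors deposited probe signal intensity values without background subtraction, together with detection p-values per the file headers. GenomeStudio is named in the submitters' processing notes, with the version not given in the sources used here. A second deposited table of intensity values matched the quantile-normalized signals within 1% for 100% of its values and served as an alternative. The table listed 47323 probes, 2 of them without values. Symbols came from the platform annotation (30113 probes with 1 symbol and 8 with several, which were not named), updated through gene identifiers for 30074 against RefSeq genes of GRCh38.p14. No probe was named RASA1 here.

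Signals were background-corrected with limma's nec (offset 16), log2-transformed and then quantile-normalized, and probes with a detection p-value under 0.05 on at least 3 arrays were fitted with lmFit and eBayes (R 4.3.3, limma 3.58.1), which was first tested on simulated data. P-values were adjusted by Benjamini-Hochberg over all 19073 probes tested. For lists, each gene was read by its tested probe with the highest mean level. The offset understates changes of dim genes. Array number, 3 per group, limits the precision. The members and lists were chosen with earlier results of these data known. Named genes were all members, up to 4 called genes of each list in each direction, the cell type markers, and the 3 probes most like SLAMF1. Other genes were named after their values were seen: FYN, PTPN6, PTPN11, LYN, PLCG1, LCK, PLCG2, BECN1 and PIK3R4. A gene without a tested probe was given by its signals. Alternatives were other background, offset, scaling, filter, variance and block settings, 1 probe a gene, the second table and leaving out each sample.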

Additional observations from a re-analysis of the deposited data

How the results depend on the processing

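The SLAMF1 difference stayed above 0 and short of the threshold in all 15 alternatives (0.10 to 0.46, adjusted p = 0.068 to 0.846). Both LY9 probes and CD48 stayed called as higher in every alternative that tested them, and 0 member probes were called lower in any. The dimmer SLAMF6 probe turned sign with median centring (-0.19) and ranged from -0.18 to 0.26 with single samples left out. Leaving out 1 sample moved the calls over all probes between 738 and 2903 higher and between 731 and 2953 lower (highest without SLAMF1 shRNA replicate 2, lowest without control replicate 3). Median centring shifted the median difference of all probes from -0.01 to -0.14, gave 969 higher calls, 1 lower signalling partner (PLCG1) and 3 higher chromosome 1 neighbours, and made 41.3% of calls higher in place of 49.5%. Requiring detection at 0.01 on every array gave 1139 lower calls, with fewer probes tested. Without a filter on dim probes there were 0 lower CD2 family relatives and 3 higher neighbours. With single samples left out, lower signalling partners numbered 0 to 2, lower CD2 family relatives 0 to 1 and higher neighbours 2 to 5. Except where fewer probes or samples were tested, the cause was not tested. With the replicate number as a block, higher neighbours numbered 3, and the member calls were the same. Replicate numbers gave deviations correlated at -0.22, -0.13 and 0.23 between same-numbered samples, so the numbers were not taken as pairs. For CD84, CD244, SLAMF8 and SH2D1B, signals near background limit what could be seen, since a fall from such signals cannot be measured.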
